A study of Mus musculus with 9 samples.

Results

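The comparison described here set the mean of the LAP and LIP groups against the empty vector (EV), to find which genes moved the same way with both isoforms of C/EBPβ and which moved in opposite directions. All 9 libraries of the study entered 1 fit, and 18725 of the 23337 genes in the count table, those with at least 1 count over the 9 libraries, were tested. Of these, 18 genes passed an adjusted p of 0.05 in the mean of both isoforms against EV, or 0.0961% of the genes tested. All 18 had the same sign with LAP and with LIP, 17 of them lower (0.0908%) and 1 higher (0.00534%) than EV. In a different test, LIP differed from LAP at 263 genes (1.40%), and 218 of these (1.16% of the genes tested) had opposite signs against EV. At an unadjusted p under 0.05 in both comparisons with EV, 24 genes had opposite signs, 68 were lower with both isoforms and 28 higher. These counts come from a test without a further filter on low counts. On simulated counts it made more false calls than its threshold allows when dispersions differed between genes. The low-count filter filterByExpr of edgeR did not. With that filter, 6 genes passed in the mean of both isoforms. LIP then differed from LAP at 21 genes, 20 of them with opposite signs.

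RNA was sequenced from immortalised Cebpb-ko mouse embryonic fibroblasts (MEFs) of a C57BL/6 x 129 background, cells in which the endogenous Cebpb gene had been disrupted. The cells had been transfected with a pcDNA3 or pSV2Zeo plasmid that was empty (EV) or carried rat LAP or rat LIP, and stable expressors were selected and kept with Zeocin. EV therefore carries the same knockout and the same selection as the isoform cells, and no group holds cells with the natural mixture of isoforms. There were 3 libraries per group, and whether the stable cells are clones or pools, and whether libraries of a group are separate cultures, is not given in the sources used here. The p-values below measure only the spread between these libraries, which may be technical.

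C/EBPβ is a basic leucine zipper transcription factor that binds DNA as a dimer, with itself or with related factors, and takes part in the differentiation of fat cells, in acute-phase and inflammatory responses and in the control of cell growth. Its isoforms arise from the same mRNA by the choice of start codon. LAP holds the transactivation domains, whereas LIP lacks them but keeps the part that dimerises and binds DNA, so LIP can occupy the sites of LAP and of other C/EBP proteins.

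Libraries held between 24839139 and 33522082 counts. Levels are given in CPM, counts scaled to a common library size. On a log2 scale and over 11535 genes averaging 20 counts or more, which are not independent replicates, Pearson's r within a group was 0.988 to 0.994 for EV, 0.975 to 0.984 for LAP and 0.966 to 0.976 for LIP. LAP 2, LIP 2 and LIP 3 stood apart from the rest by their highest r to any other library, 0.972 to 0.981, against 0.988 to 0.994 for the others. Their lowest r was 0.946 to 0.954, but that of LAP 1 was also low, at 0.950. Of 12 fibroblast markers all were detected, and their summed level was 25364 to 27935 CPM in EV, 19645 to 31035 CPM in LAP and 10313 to 19898 CPM in LIP. The median log2 fold change of the 12 markers with LIP was -1.09. In the mean of both isoforms against EV, 0 of the 12 had a positive log2 fold change. The size of the fall differed, and raw counts of 2 markers overlapped between EV and LIP. Vim had 133570 to 154753 counts in EV and 102497 to 142257 in LIP. Twist1 had 1135 to 2199 counts in EV and 890 to 2343 in LIP. The fibroblast marker Lum had 0 counts in every LIP library, but only 45, 14 and 3 in EV and 22, 1 and 3 in LAP. Krt8 and Krt14, keratins that also mark epithelia, had between 2506 and 24521 counts in every library, while of the other 5 epithelial markers Cdh1 had 24 to 111 counts, Krt18 22 to 73, Epcam 1 to 18 and Cldn4 and Esrp1 at most 2. Of leukocyte and macrophage markers, Ptprc and Itgam had 0 counts in every library, while Cd68 had 68 to 250, Cd14 55 to 150 and Csf1r 21 to 76, and their summed level was 7.05 to 8.99 CPM in EV, 9.99 to 11.2 CPM in LAP and 6.46 to 10.8 CPM in LIP. Of endothelial markers, Pecam1 had 0 counts in every library and Tie1 at most 2, while Kdr had 31 to 90, Tek 4 to 35 and Cdh5 5 to 15. In bulk RNA, fewer cells of a type and less RNA per cell cannot be told apart.

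Mouse Cebpb had 28.7 ± 2.97 CPM in EV, 29.6 ± 3.90 CPM in LAP and 31.1 ± 2.59 CPM in LIP (SD, n = 3 each). Cebpb differed by 0.08 ± 0.156 (log2 fold change ± standard error) between the isoforms and EV, and an exact permutation test of 6 libraries against 3 (two-sided), whose smallest p is 0.0119, gave p = 0.452. The plasmids carry the rat sequence and Cebpb overlaps Tmem189 on the opposite strand, so the Cebpb level does not settle whether the labels hold. How many reads of the rat sequence were counted for mouse Cebpb was not tested. The library kit keeps no strand, so overlapping genes of either orientation may share reads.

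Without the replicate number in the fit, the shared changes were few and nearly all downward. Without adjustment, p was under 0.05 for 557 lower and 286 higher genes. Of the 18 genes past the adjusted threshold, 15 had all 6 isoform libraries on one side of all 3 EV libraries, a separation that 339 of all genes tested (1.81%) also had, 184 below EV (0.983%) and 155 above it (0.828%). The equal signs of the 18 genes are no separate result, since a mean over both isoforms passes most readily where both move together. Compared with EV one isoform at a time in the same fit, 3 of the 18 genes were past the threshold with LAP (0.0267% of all genes) and 17 with LIP (0.838%). The comparisons of each isoform with EV share the EV libraries with the mean of both, so the counts do not add to each other. With the replicate number as a block, 9 of the 18 genes passed with LAP (25 of all genes). The mean of both then called 226 genes, 208 lower and 18 higher, and 195 of them had a shared direction.

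**Figure D1:**
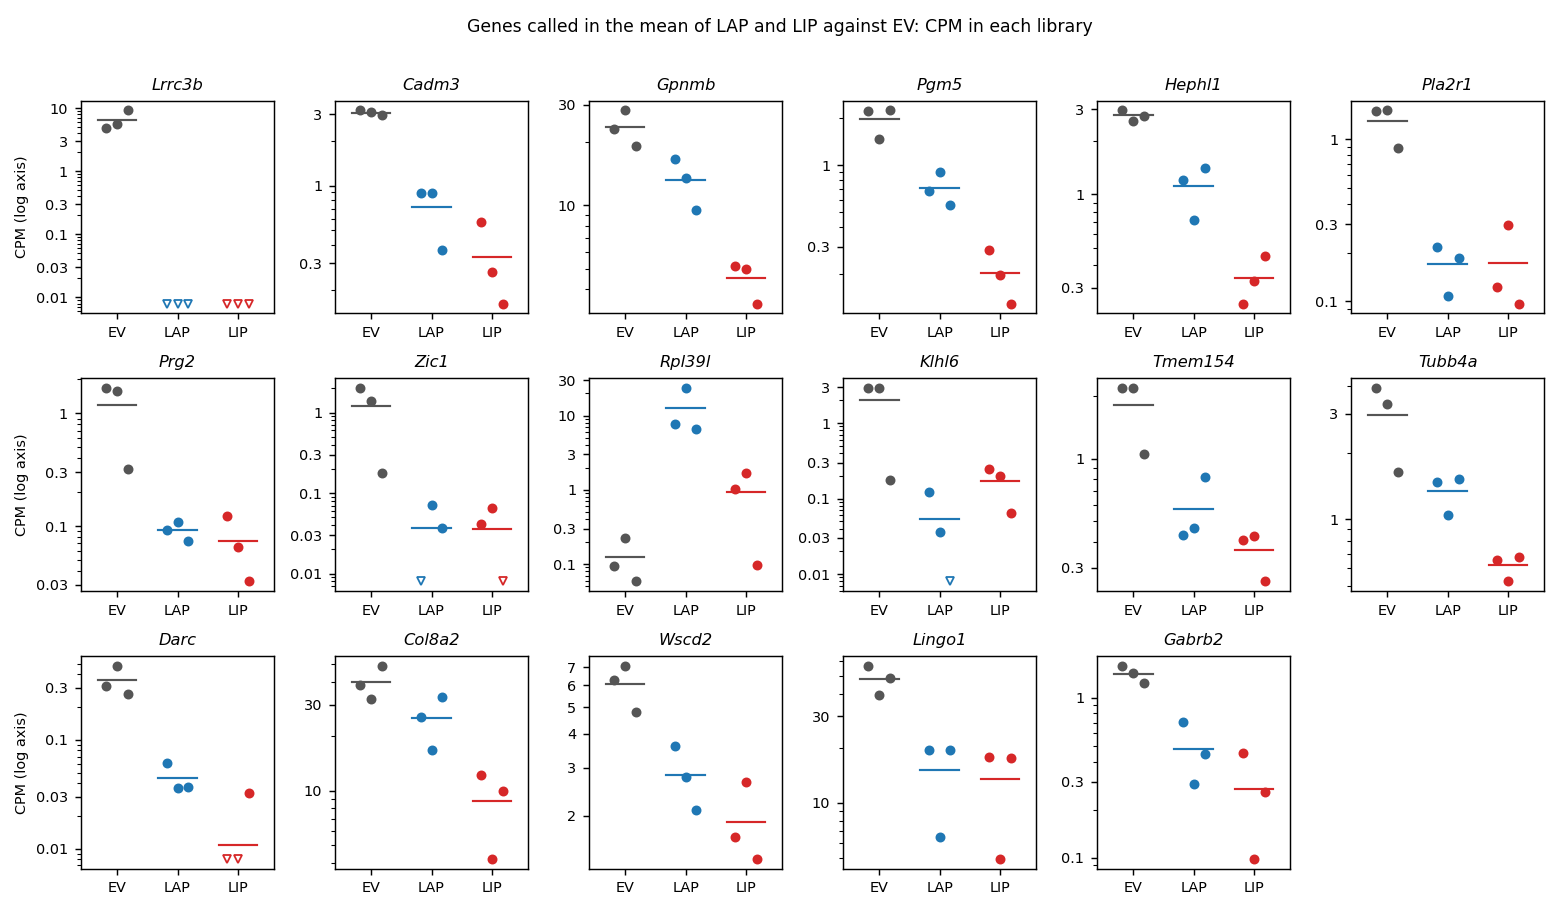
CPM (log axis) of 17 of the 18 genes past the threshold in the mean of LAP and LIP against EV, in the order of their p. Points are libraries, replicates 1 to 3 from left to right, bars are group means and open triangles mark 0 counts. In 14 panels all 6 isoform points lie below all EV points, while groups overlap for Klhl6 (EV 3), Col8a2 (LAP 3) and Rpl39l (LIP 3).

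Lrrc3b, which encodes a leucine-rich repeat membrane protein, was not detected in either isoform group. Its position is chromosome 14, 15357515 to 15438987 (all positions are on GRCm38.p6). EV libraries held 157, 152 and 317 counts of Lrrc3b, and all 6 isoform libraries held 0. With 3 counts per library as the floor, which is 0.0895 to 0.121 CPM by total counts, Lrrc3b was at least 54.8-fold lower with either isoform (adjusted p = 2.66e-07, quasi-likelihood test of edgeR, Benjamini-Hochberg adjustment). The floor covers the error of counting reads, which without molecular identifiers are not distinct molecules. Lrrc3b passed the threshold with LAP alone and with LIP alone, and under every alternative tried.

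Cadm3, an adhesion molecule of the immunoglobulin class on chromosome 1 from 173331892 to 173368139, had 3.20, 3.10 and 2.96 CPM in EV. Its level was 0.894, 0.898 and 0.370 CPM in LAP and 0.571, 0.262 and 0.161 CPM in LIP. All isoform libraries lay below EV, LIP mostly below LAP, and the log2 fold change with either isoform was -2.66 ± 0.329 (adjusted p = 0.00166 by the quasi-likelihood test). Darc, listed in RefSeq as Ackr1, a receptor that binds chemokines without signalling through G proteins, overlaps Cadm3 over 1612 bases on the same strand. It had 10, 13 and 9 counts in EV, 2, 1 and 1 in LAP and 0, 0 and 1 in LIP. Reads in the shared part could be counted for either gene or for neither, so the change of Darc (adjusted p = 0.0325 by the same test) is not independent of that of Cadm3.

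Gpnmb encodes a transmembrane glycoprotein of lysosomes and the cell surface and lies on chromosome 6 from 49036518 to 49058182. It stood at 23.0, 28.2 and 19.0 CPM in EV, 16.6, 13.4 and 9.54 CPM in LAP and 5.18, 4.98 and 3.42 CPM in LIP. The 3 groups did not overlap and LIP was lowest. Gpnmb changed by -1.60 ± 0.205 (log2) with either isoform (adjusted p = 0.00166 by the quasi-likelihood test), made of -0.83 with LAP and -2.37 with LIP. The isoforms differed by -1.55 for Gpnmb (LIP against LAP, adjusted p = 0.00648 by the same test), so the shared direction came with an unequal size.

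Lingo1, a leucine-rich repeat and immunoglobulin-domain protein known as an inhibitor of axon growth and myelination, lies on chromosome 9 from 56618460 to 56796310. Its level was 56.9, 39.2 and 48.8 CPM in EV, 19.6, 6.54 and 19.6 CPM in LAP and 17.9, 4.91 and 17.6 CPM in LIP. Both isoform groups were below EV and overlapped each other, with the lowest library in each being replicate 2. The log2 fold change of Lingo1 was -1.75 ± 0.326 with either isoform (adjusted p = 0.046 by the quasi-likelihood test), and LIP differed from LAP by -0.18 with a 95% interval of -1.01 to 0.65. Pla2r1, the M-type receptor of secreted phospholipases A2, had 48, 41 and 30 counts in EV, 7, 3 and 5 in LAP and 3, 9 and 3 in LIP. All 6 isoform libraries were well below EV, at a log2 fold change of -2.88 ± 0.383 (adjusted p = 0.00193 by the same test). Pla2r1 was the other gene past the threshold with each isoform alone and lower in both, and the isoforms differed by 0.02 (interval -1.20 to 1.24). Tmem154, a transmembrane protein, and Gabrb2, a GABA-A receptor subunit, both changed by -1.98 (adjusted p = 0.0202 and 0.046).

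Col8a2, an alpha chain of type VIII collagen on chromosome 4 from 126286794 to 126314330, stood at 1236, 873 and 1679 counts in EV, 828, 468 and 893 in LAP and 300, 128 and 310 in LIP. LIP was clear of both other groups, while LAP 3 (33.0 CPM) lay above the lowest EV library (32.2 CPM). The log2 fold change was -1.43 ± 0.257 with either isoform (adjusted p = 0.0395 by the quasi-likelihood test), but -0.67 with LAP (adjusted p = 1) against -2.18 with LIP (adjusted p = 0.00293). Prg2, which encodes the eosinophil granule major basic protein, had 54, 43 and 11 counts in EV against 1 to 3 in the isoform libraries (log2 fold change -3.82 ± 0.515, adjusted p = 0.00197 by the same test). EV 3 held the fewest Prg2 counts of EV.

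Enzymes and intracellular proteins included Hephl1, a copper-dependent ferroxidase of the hephaestin family, and Pgm5, a protein of adherens-type junctions related to phosphoglucomutase. Hephl1 had 95, 70 and 94 counts in EV, 39, 20 and 38 in LAP and 6, 10 and 14 in LIP. Pgm5 had 72, 40 and 77 counts in EV, 22, 25 and 15 in LAP and 7, 6 and 4 in LIP. LAP lay below EV and LIP below LAP for both genes, without overlap. The log2 fold change was -2.15 ± 0.279 for Hephl1 and -2.39 ± 0.308 for Pgm5 (adjusted p = 0.00166 for each by the quasi-likelihood test), and LIP differed from LAP by -1.67 for Hephl1 and by -1.81 for Pgm5 (adjusted p = 0.0313 and 0.0446). Wscd2, on chromosome 5 from 113489110 to 113589725, had 6.28, 7.09 and 4.80 CPM in EV, 3.61, 2.77 and 2.11 CPM in LAP and 1.67, 2.65 and 1.39 CPM in LIP. All isoform libraries of Wscd2 were below EV, at -1.38 ± 0.251 (adjusted p = 0.0407). Tubb4a, a beta tubulin, changed by -1.69 ± 0.288 (adjusted p = 0.0238), with its lowest EV level in EV 3.

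Zic1, a zinc finger transcription factor of neural and musculoskeletal development, was also among the 18. It had 65, 38 and 6 counts in EV, 0, 2 and 1 in LAP and 1, 2 and 0 in LIP. EV 3 was far below the other EV libraries yet above every isoform library. Zic1 changed by -4.94 ± 0.707 on the log2 scale (adjusted p = 0.00383 by the quasi-likelihood test). Zic1 shares 138 bases with Zic4 on the opposite strand, and Zic4 itself held 7 counts over all 9 libraries. Klhl6, an adaptor of a ubiquitin ligase best known in B cells, had 93, 79 and 6 counts in EV, 4, 1 and 0 in LAP and 6, 6 and 2 in LIP. EV 3 reached down to the isoform libraries here, so the groups overlapped despite a log2 fold change of -4.29 (adjusted p = 0.00777 by the same test).

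Rpl39l, a paralog of the ribosomal protein gene Rpl39 that is best known from testis, was the single gene called higher. Rpl39l (chromosome 16, 10170197 to 10174911) was nearly silent in EV, at 3, 6 and 2 counts, and stood at 252, 658 and 177 in LAP and 25, 51 and 3 in LIP. LAP was high in every library, LIP only in replicates 1 and 2, and LIP 3 lay within the EV range. The log2 fold change was 4.80 ± 0.736 with either isoform (adjusted p = 0.00777 by the quasi-likelihood test), made of 6.68 with LAP (adjusted p = 0.000528) and 2.91 with LIP (adjusted p = 0.119). LIP differed from LAP by -3.77 (adjusted p = 0.00634). The call with either isoform depended on the fit. It missed the threshold of the quasi-likelihood test with filterByExpr (adjusted p = 0.247), robust estimation (0.581) and LAP and LIP as 1 group (0.886). Rpl39 itself, with which reads could have been shared, had 700 to 757 CPM in EV, 685 to 1862 CPM in LAP and 772 to 1736 CPM in LIP. In Rpl39 the high libraries were LAP 2 and LIP 2, which were also the highest of their groups for Rpl39l, and the part of shared reads in this result was not tested.

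In size, the shared changes leaned to LIP. Of the 17 lower genes, 13 had the larger change with LIP. The direct test of LIP against LAP was past the threshold at 5 of the 18 genes, where 1.40% of all genes were: Gpnmb, Pgm5, Hephl1 and Col8a2 lay further below EV with LIP, and Rpl39l lay further above EV with LAP. The other 13 genes did not pass, which does not show that the isoforms act alike on them. For Prg2 and Zic1 the intervals ran from -2.26 to 1.54 and from -2.95 to 2.98, where isoform libraries held 3 counts or fewer.

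**Figure D2:**
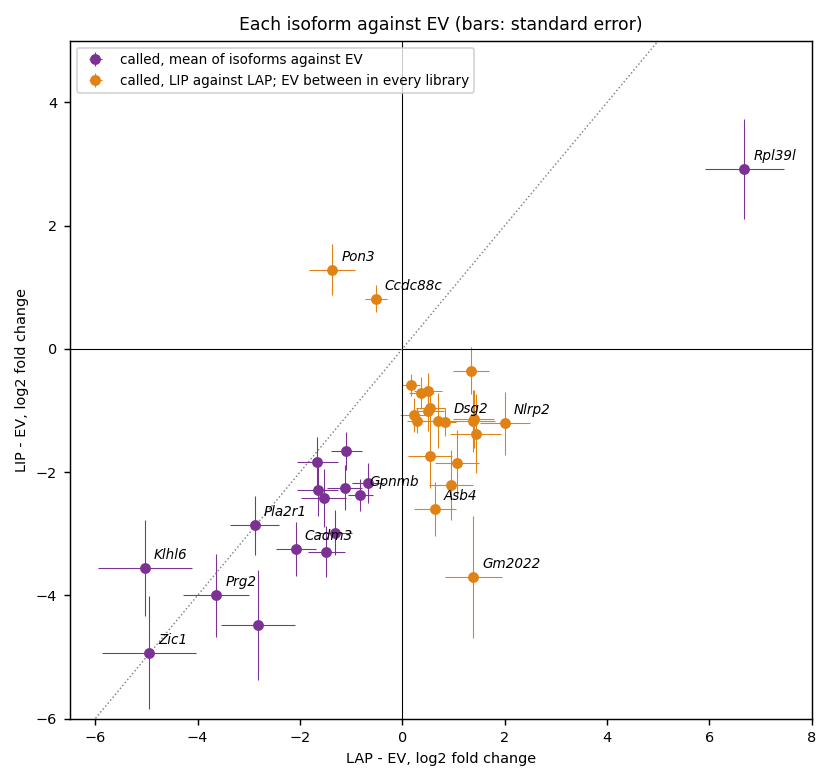
Log2 fold change against EV with LAP (horizontal axis) and with LIP (vertical axis), with standard errors as bars; the dotted line marks equal change. Purple points are 16 of the 18 genes of the shared change (Lrrc3b, at 0 counts with both isoforms, is among those left out) and orange points 21 of the 22 genes called in LIP against LAP with EV between the isoforms in every library. Positions follow from how the genes were chosen, and both axes share the EV libraries.

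More genes were called in LIP against LAP with opposite signs than in the mean of both against EV, but these tests are unlike. LIP against LAP was below at 212 genes (1.13%) and above at 51 (0.272%). Of the 263 genes, 218 had opposite signs against EV, or 82.9%, where 36.8% of all genes tested had opposite signs. A difference between the isoforms tends to place EV between them, so this share is a description. LAP lay above and LIP below EV in 175 of the 218 genes, with a median log2 fold change of 0.35 with LAP and -1.36 with LIP. In the other 43 genes LAP lay below and LIP above, with medians of -0.28 and 0.88. The departure from EV was larger with LIP in 191 of the 218 genes, 59 of them were past the threshold in LIP against EV, and 0 were in LAP against EV by edgeR, where 39 had an unadjusted p under 0.05 and DESeq2 called 1. By the same criterion for both patterns, an unadjusted p under 0.05 in each comparison with EV, opposite signs were the fewer. Of all genes tested, 24 then had opposite signs, 68 were lower with both isoforms and 28 higher with both.

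These counts moved with the model and with single libraries. LAP and LIP libraries of the same replicate number deviated together, and with the replicate number as a block 963 genes differed between LIP and LAP and 675 of them had opposite signs. The number with opposite signs was 50 without LAP 1, 32 without LAP 2 and 88 without LIP 2, but 390 without LAP 3 and 372 without LIP 1. Without LAP 2, LIP 2 and LIP 3, an alternative chosen after seeing the data that leaves 1 LIP library, it was 3, and the genes with a shared direction were 10, of which 8 were among the 18. With edgeR's filterByExpr, which kept 12681 genes, 20 genes had opposite signs, and 6 of the 14 members of the shared change that it kept passed.

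With all 3 EV libraries strictly between the isoforms, 22 of the 218 genes remained. EV lay between in every library in 63 of all genes tested (0.336%). LAP was above and LIP below EV in 20 of the 22 genes, and the reverse held for Pon3 and Ccdc88c. All 22 were past the threshold with the replicate block, and 6 of them (Asb4, Ccdc88c, Cxcl14, Dram1, Dsg2 and Pon3) with each library left out in turn. Without LAP 2, 7 of the 22 passed, with filterByExpr 5 and with robust estimation 17. Asb4 missed the threshold with filterByExpr (adjusted p = 0.0514) and with robust estimation (0.116), and Pon3 with filterByExpr (0.0555). Without LAP 1 the number was 11 and without LIP 2 it was 13.

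**Figure D3:**
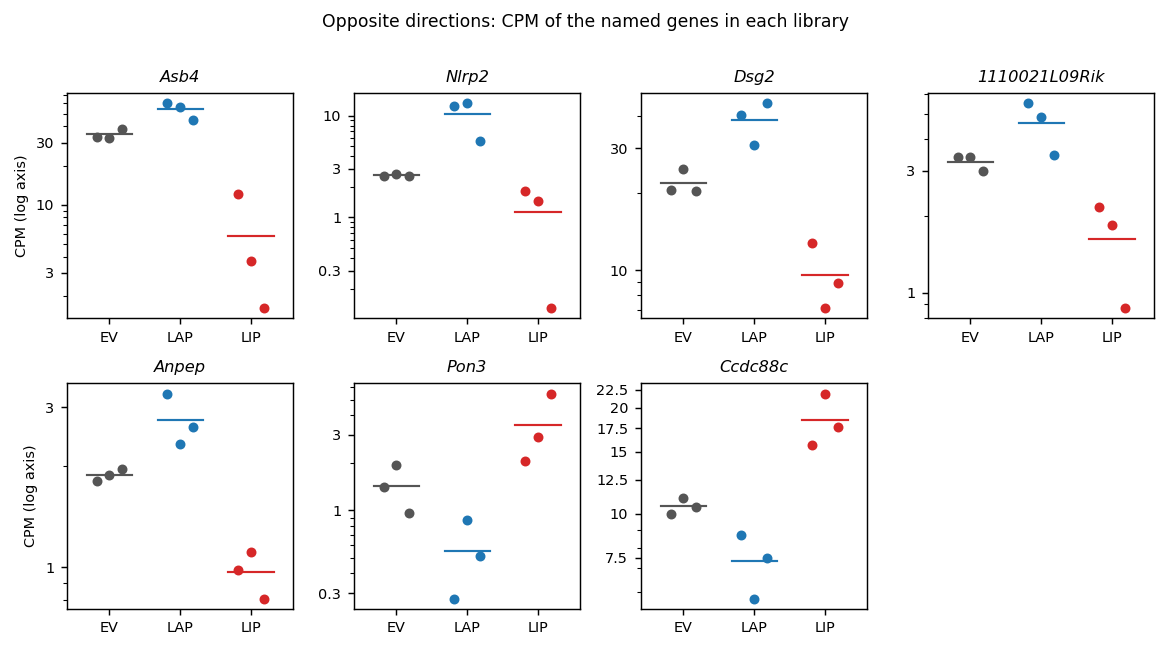
CPM (log axis) of 7 named genes with EV strictly between the isoforms. Points are libraries, replicates 1 to 3 from left to right, and bars are group means; Pon3 and Ccdc88c are highest in LIP, and the other 5 are highest in LAP.

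Asb4, a substrate-binding subunit of a ubiquitin ligase, lies on chromosome 6 from 5383386 to 5433022. The libraries held 1069, 884 and 1311 Asb4 counts in EV, 1960, 1576 and 1208 in LAP and 294, 113 and 50 in LIP. In CPM, LAP (44.7 to 60.4) was moderately above EV (32.6 to 38.4), LIP was far below it, and no libraries overlapped. LIP differed from LAP by -3.24 ± 0.448 (adjusted p = 0.00189 by the quasi-likelihood test), with 0.63 for LAP and -2.60 for LIP against EV, of which the second passed (adjusted p = 0.00744). Dsg2, a desmosomal cadherin on chromosome 18 from 20558074 to 20604526, had 20.5, 24.8 and 20.4 CPM in EV, 40.4, 30.9 and 45.0 CPM in LAP and 12.8, 7.14 and 8.95 CPM in LIP. The shift was of similar size on both sides of EV, 0.82 and -1.19, and LIP differed from LAP by -2.01 ± 0.231 (adjusted p = 0.000482). Asb4 and Dsg2 were the 2 of the 22 genes still past the threshold without LAP 2, LIP 2 and LIP 3.

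Nlrp2, an NLR family protein, at chromosome 7, 5298547 to 5351035, held 82, 72 and 88 counts in EV, 400, 371 and 152 in LAP and 45, 44 and 4 in LIP. No libraries overlapped between groups, the log2 fold change was 2.01 for LAP and -1.21 for LIP against EV, and the isoforms differed by -3.22 ± 0.523 (adjusted p = 0.00634 by the quasi-likelihood test). Anpep, the membrane aminopeptidase N, and 1110021L09Rik, listed in RefSeq as Slc18b1, a transporter of the vesicular amine class, both differed by -1.51 between the isoforms (adjusted p = 0.0184 and 0.0271). Neither isoform alone passed the threshold against EV for these 3 genes.

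Pon3, a lactonase of the paraoxonase family, lies on chromosome 6 from 5216256 to 5256285. Its counts were 45, 52 and 33 for EV, 9, 24 and 14 for LAP and 50, 88 and 169 for LIP. LAP was lowest and LIP highest in every library, with LIP 3 the highest of all. LIP lay above LAP by 2.66 ± 0.445 (adjusted p = 0.00677 by the quasi-likelihood test), with -1.37 for LAP and 1.29 for LIP against EV. Pon3 and Asb4, with opposite orders of the groups, lie 127100 bases apart, which was looked up after their values were seen. Ccdc88c, a regulator of Wnt signalling that binds Dishevelled, had 9.98, 11.1 and 10.4 CPM in EV, 8.72, 5.75 and 7.51 CPM in LAP and 15.7, 22.0 and 17.6 CPM in LIP. The change was small but ordered in every library, at 1.33 ± 0.223 between LIP and LAP (adjusted p = 0.00677).

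Of 14 further genes with EV strictly between, all with LAP above and LIP below, Cd14, the lipopolysaccharide co-receptor, Cxcl14, a chemokine, Dram1, a lysosomal protein of the p53 response, and Fstl1, a secreted glycoprotein, differed between LIP and LAP by -1.09, -3.16, -1.45 and -1.30. The other genes were Atp9a, Chrm4, Cyp3a13, Dse, Emid1, Gm2022, Hspa13, Npr3, Pcdhac2 and Zfp811. Pcdhac2 shares exons with 12 other genes of the Pcdha cluster, so its count depends on how shared reads were assigned.

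C/EBP proteins bind a palindrome whose core can be written TTGCNNAA, which reads TTNNGCAA on the other strand. RefSeq promoters on GRCm38.p6, from 250 bases before to 50 after the start, were searched for either form on both strands, and 10.8% of 32851 promoters held one. Of the 18 genes with a shared change, 15 had an entry and 1 held a match (Hephl1). Of the 22 genes with EV strictly between, 15 had an entry and 2 held a match (Dram1 and Pon3). These matches describe letters in the window and not binding. The promoters of Hephl1 (chr9:15112059-15112358, minus strand), the only shared gene with a match, of Lrrc3b (chr14:15438938-15439237, minus strand), the gene at 0 counts with both isoforms, and of Dram1 (chr10:88357026-88357325, minus strand) and Pon3 (chr6:5256184-5256483, minus strand), which move apart in contrary ways, are printed 5′ to 3′ with each match in capitals.
Hephl1: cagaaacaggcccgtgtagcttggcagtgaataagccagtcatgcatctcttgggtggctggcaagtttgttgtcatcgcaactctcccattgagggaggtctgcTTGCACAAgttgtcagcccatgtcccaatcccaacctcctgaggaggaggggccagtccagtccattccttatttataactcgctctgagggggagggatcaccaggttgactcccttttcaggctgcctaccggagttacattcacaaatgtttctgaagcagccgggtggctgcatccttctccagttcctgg
Lrrc3b: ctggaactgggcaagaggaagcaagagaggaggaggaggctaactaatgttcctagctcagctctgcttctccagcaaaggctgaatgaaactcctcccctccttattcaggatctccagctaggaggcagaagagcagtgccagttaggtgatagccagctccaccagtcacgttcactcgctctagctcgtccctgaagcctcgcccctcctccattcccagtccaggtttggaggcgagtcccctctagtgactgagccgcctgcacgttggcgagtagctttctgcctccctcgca
Dram1: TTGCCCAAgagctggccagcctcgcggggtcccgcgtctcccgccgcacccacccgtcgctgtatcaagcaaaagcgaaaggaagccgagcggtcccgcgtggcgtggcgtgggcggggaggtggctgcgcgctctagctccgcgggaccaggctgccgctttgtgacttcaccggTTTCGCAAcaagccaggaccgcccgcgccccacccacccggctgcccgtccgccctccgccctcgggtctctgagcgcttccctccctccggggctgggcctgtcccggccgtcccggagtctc
Pon3: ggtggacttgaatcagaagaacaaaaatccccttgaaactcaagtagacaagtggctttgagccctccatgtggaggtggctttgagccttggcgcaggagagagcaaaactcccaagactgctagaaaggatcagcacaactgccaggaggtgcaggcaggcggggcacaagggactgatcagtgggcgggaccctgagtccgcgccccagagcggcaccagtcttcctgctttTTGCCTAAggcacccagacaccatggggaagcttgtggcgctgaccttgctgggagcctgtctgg

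Lists of genes with a shared role, 18 in all, were described by their counts and medians. In the mean of both isoforms against EV, 4 of the 18 lists held a called gene and each held 1, where 0.0961% of all genes tested were called. These were Col8a2 among 43 collagen chains, Cadm3 among 23 adhesion molecules of the immunoglobulin class, Gabrb2 among 175 ion channel subunits and Rpl39l among 82 cytosolic ribosomal proteins. No gene was called with either isoform among 6 members of the C/EBP family, 20 acute-phase and inflammatory C/EBP targets, 14 adipogenic genes, 11 contractile genes, 30 cell cycle genes, 16 p53 targets and cell cycle inhibitors, 20 glycolysis genes, 18 ATF4 targets or 14 let-7 targets. The same held for 21 interferon response genes, 105 integrins, cadherins and protocadherins, 87 homeobox factors, 57 Wnt pathway genes and 70 semaphorins, ephrins, slits and netrins. In these 14 lists, which hold 485 genes, edgeR's quasi-likelihood test called 0 genes, 58 of the 485 had an unadjusted p under 0.05, beside 843 of all 18725 genes, and DESeq2 called 1, the homeobox gene Dlx3.

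Genes with opposite directions were spread over more lists. Of 57 Wnt pathway genes, 7 (12.3%, where 1.16% of all genes were) differed between LIP and LAP with opposite signs, all with LAP above and LIP below EV. They were the secreted Wnt inhibitors Sfrp1, Sfrp2 and Sfrp4, the matricellular protein Wisp2, the Wnt enhancer Rspo2 with the R-spondin receptor Lgr4, and the ligand Wnt6. None of the 7 passed in LAP against EV. The LAP changes were 0.07 for Sfrp4, 0.15 for Lgr4, 0.21 for Wisp2 and 0.43 for Rspo2. They were 0.64 for Sfrp1 and 0.76 for Wnt6, which averaged only 0.18 CPM in EV and 0 in LIP. Sfrp2 had 28.2, 20.3 and 27.4 CPM in EV, 44.1, 30.8 and 16.5 CPM in LAP and 4.33, 1.47 and 0.743 CPM in LIP. LAP overlapped EV and LIP was far below both, so the opposite sign of Sfrp2 rests on a LAP change of 0.27 (LIP against LAP -3.83 ± 0.466, adjusted p = 0.000657 by the quasi-likelihood test). Of 105 integrins, cadherins and protocadherins, 8 (7.62%) had the same pattern, among them Pcdhac2, Pcdhgb5, Pcdh9 and Itga9, by -2.92, -2.66, -1.04 and -2.22 between LIP and LAP. None of these 8 passed in LAP against EV either, and their LAP changes ran from 0.01 for Pcdhga6 and 0.03 for Itgb5 to 1.07 for Pcdh1. Pcdhgb5 overlaps exons of 25 other genes, Pcdhga6 among them, so their counts depend on how shared reads were assigned. The summed level of fibroblast markers was also lower in LIP, though raw counts of Vim and Twist1 overlapped EV. The part of this lower level in these counts was not tested.

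Of 20 acute-phase and inflammatory C/EBP targets, 4 (20%, where 1.16% of all genes had opposite signs) differed between the isoforms with LAP above and LIP below EV. They were the chemokines Cxcl5, Cxcl1 and Ccl7 and the pentraxin Ptx3, by -3.16, -2.12, -1.97 and -1.60. None of the 4 passed in LAP against EV. In LIP against EV, Ccl7 and Ptx3 did not pass (adjusted p = 0.270 and 0.127 by the quasi-likelihood test). Cxcl5 had 121, 93.5 and 168 CPM in EV, 223, 240 and 132 CPM in LAP and 38.9, 17.0 and 10.8 CPM in LIP. LAP 3 lay within EV and every LIP library below it, and the adjusted p of LIP against LAP was 0.000521 by the quasi-likelihood test. The medians of the 20 genes were 0.42 with LAP and -0.51 with LIP, beside 0.01 and 0.02 over all genes. Other opposite calls with LAP above were Lpl among adipogenic genes, Gbp2 among interferon response genes, Nupr1 among ATF4 targets, Igf2bp3 among let-7 targets, Dscam among adhesion molecules, Col10a1 and Col8a1 among collagen chains, Epha3 and Sema6a among semaphorins, ephrins, slits and netrins, and Gabra3, P2rx3 and Scn4a among ion channel subunits. In the homeobox list, Prrx1, which is also among the fibroblast markers, had LAP above and LIP below EV, whereas Hoxa9 and Hoxa10 had LAP below.

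Hoxa9 had 2.71, 2.73 and 1.93 CPM in EV, 0.617, 0.970 and 0.592 CPM in LAP and 2.12, 3.08 and 2.23 CPM in LIP. LAP lay below both other groups, which overlapped, and the sign of LIP rests on a change of 0.02 (LIP against LAP 1.77 ± 0.327, adjusted p = 0.0133 by the quasi-likelihood test). The count of 218 holds genes of this kind, in which one isoform lay near EV, and in 21 of the 218 genes both isoforms changed by at least 1 on the log2 scale. Dlx3, the homeobox gene with the smallest p in the mean of both isoforms, had 4.98, 6.42 and 4.89 CPM in EV, 1.94, 2.12 and 2.22 CPM in LAP and 2.69, 3.31 and 3.88 CPM in LIP. All isoform libraries were below EV, but the log2 fold change of -1.04 ± 0.216 did not pass by edgeR (adjusted p = 0.0952), but did by DESeq2 (adjusted p = 0.00129).

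Beside a median of 0.02 over all genes, that of the interferon response genes was -0.71, that of the collagen chains -0.34 and that of the ribosomal proteins 0.37. The collagen median lay near that of all genes with LAP, at -0.004, and was -0.41 with LIP. It ran from -0.45 without LAP 1 to -0.12 without EV 1. The interferon median was -0.09 with LAP and -1.46 with LIP, and 1 of its 21 genes, Oas1a, had all isoform libraries below EV (4.76%, beside 0.983% of all genes). Oas1a, an antiviral oligoadenylate synthetase, had 17, 9 and 47 counts in EV, 8, 1 and 8 in LAP and 7, 0 and 6 in LIP (log2 fold change -2.10 ± 0.596, adjusted p = 0.405). The ribosomal median was 0.42 with LAP and 0.33 with LIP, and 7 of the 82 genes (Rpl3, Rpl7a, Rpl8, Rpl18, Rpl29, Rpl37 and Rps26) had every isoform library above EV (8.54%, beside 0.828% of all genes). The summed ribosomal level was 60382 to 66274 CPM in EV, 61659, 120776 and 63499 CPM in LAP and 64809, 95139 and 78356 CPM in LIP. It stood highest in LAP 2, LIP 2 and LIP 3, the libraries that stood apart, and the other LAP libraries and LIP 1 lay within the EV range. Without LAP 2, LIP 2 and LIP 3 the ribosomal median was 0.04 (all genes -0.03), and without LAP 2 alone it was 0.17; under the other alternatives it ran up to 0.45. The interferon median ran from -0.96 without LAP 1 to -0.25 without EV 1.

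**Figure D4:**
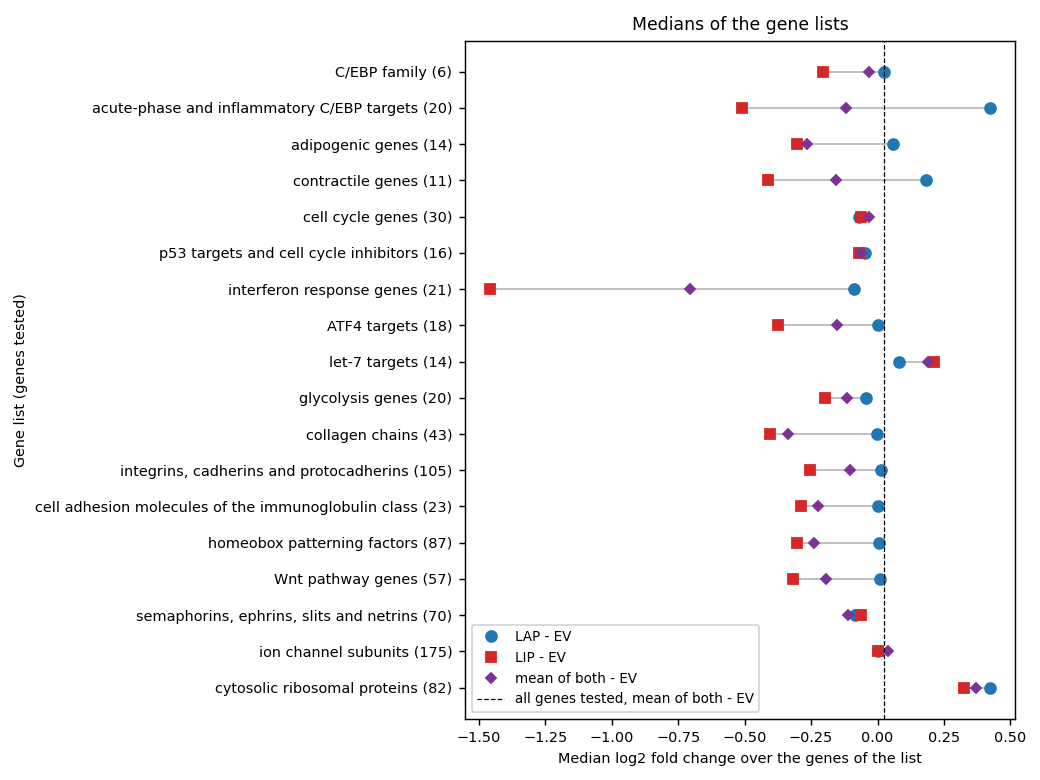
Median log2 fold change of each of 18 gene lists with LAP, with LIP and in the mean of both against EV; the dashed line is the median over all genes tested. Interferon response genes lie lowest with LIP at -1.46, ribosomal proteins lie above the line with both isoforms, and the acute-phase list has LAP at 0.42 and LIP at -0.51.

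Lin28b, an RNA-binding protein that blocks the maturation of let-7 and the gene the study followed, had 5.07, 4.80 and 3.22 CPM in EV, 4.75, 8.91 and 3.22 CPM in LAP and 13.2, 33.3 and 11.2 CPM in LIP. LIP was above both other groups, and LAP overlapped EV. Lin28b passed in LIP against EV (log2 fold change 2.14, adjusted p = 0.0140 by the quasi-likelihood test). It also passed in LIP against LAP (1.78, adjusted p = 0.0294 by the same test), and its change with LAP against EV was 0.37. With either isoform the log2 fold change was 1.26 ± 0.355 (adjusted p = 0.405 by the quasi-likelihood test; p = 0.321, two-sided, in the exact permutation test of 6 libraries against 3), so Lin28b was not among the shared changes. Glra2, a glycine receptor subunit at 0 to 2 counts in EV and in LIP and 198 to 459 in LAP, likewise did not pass in the mean of both by edgeR (adjusted p = 0.317), but did by DESeq2 (adjusted p = 0.0492).

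Among the genes that edgeR did not call with either isoform, Klf8 and Icam1 were chosen after their values were seen, as those with the smallest p among genes that averaged 50 counts or more and had all isoform libraries above EV. Klf8, a Krüppel-like transcription factor, had 20, 26 and 15 counts in EV, 36, 55 and 40 in LAP and 40, 117 and 144 in LIP (log2 fold change 1.76 ± 0.375, adjusted p = 0.111 by the quasi-likelihood test). Icam1, an adhesion receptor for leukocytes, had 3.11, 2.44 and 2.20 CPM in EV, 4.81, 4.56 and 3.22 CPM in LAP and 6.37, 5.37 and 7.69 CPM in LIP. Every isoform library lay above EV for both genes, and Icam1 differed by 1.01 ± 0.24 (adjusted p = 0.197 by the same test). The call depended on the tool, since DESeq2 called both (adjusted p = 0.00783 for Klf8 and 0.00971 for Icam1).

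The 18 genes of the shared change did not hold equally. With each library left out in turn, 9 of them passed in all 9 fits: Cadm3, Gpnmb, Hephl1, Lrrc3b, Pgm5, Pla2r1, Prg2, Rpl39l and Zic1. Without LAP 2 the other 9 genes were lost, among them Klhl6, Tmem154, Tubb4a, Darc, Col8a2, Wscd2, Lingo1 and Gabrb2 at adjusted p of 0.122 to 0.201. Of these 8, Tmem154, Tubb4a, Wscd2, Gabrb2, Lingo1 and Darc also missed the threshold without EV 1 (0.0688 to 0.189), and the same 6 missed it without EV 2 (0.052 to 0.205). Col8a2, Gabrb2 and Lingo1 missed it without EV 3 (0.0653 to 0.141), Wscd2, Lingo1 and Darc without LIP 1 (0.0528 to 0.0683), and Darc without LIP 2 (0.0507). With filterByExpr Cadm3, Gpnmb, Hephl1, Lrrc3b, Pgm5 and Pla2r1 passed, with adjusted p between 0.00439 and 0.0238, whereas Prg2, Zic1, Klhl6 and Darc were not tested. Rpl39l, the single gene called higher, was tested with filterByExpr and missed the threshold (0.247). Robust estimation kept 10 of the 18 genes, and Rpl39l (0.581) and Zic1 (0.0564) were among those that missed. With LAP and LIP as 1 group of 6, which leaves the difference between the isoforms in the error, Lrrc3b, Pla2r1, Prg2 and Zic1 passed. Lrrc3b and Pla2r1 thus passed under every alternative fit to all libraries, to 8 libraries and without the 3 that stood apart.

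**Figure D5:**
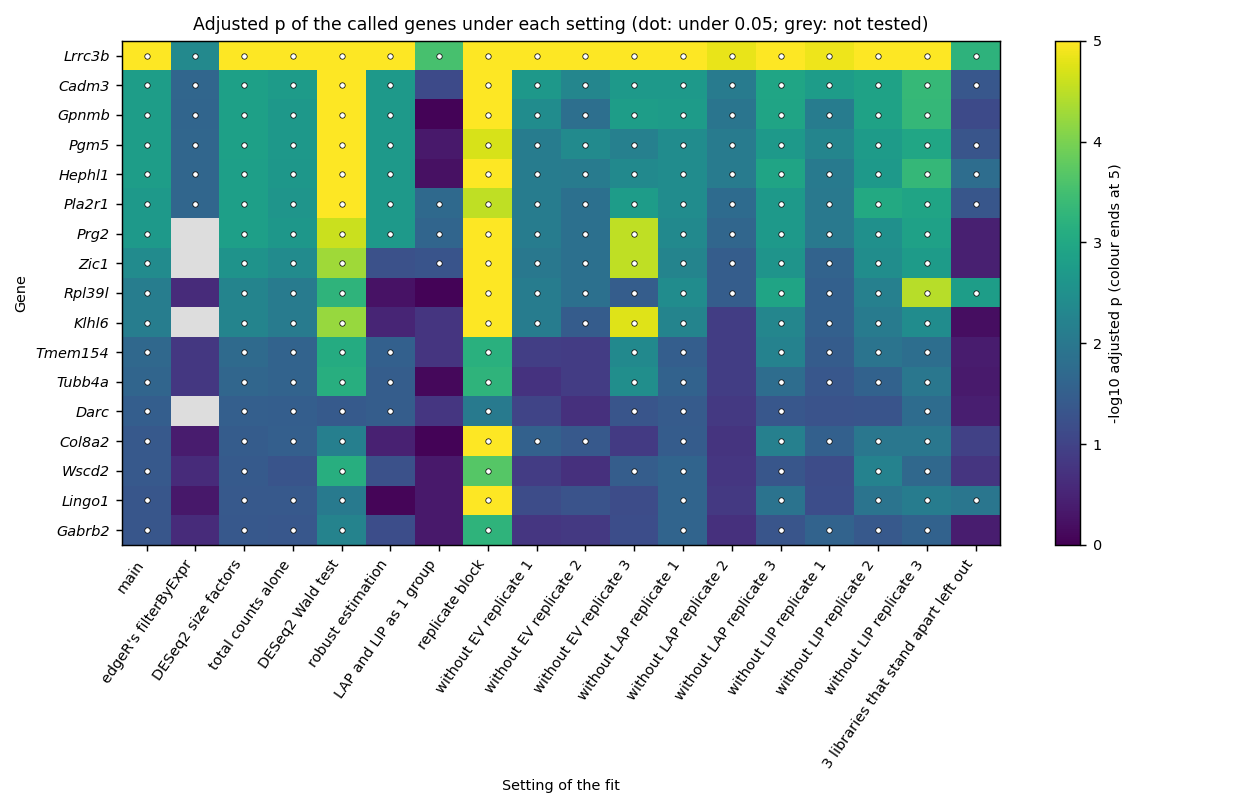
Adjusted p, as -log10, of 17 of the 18 genes of the shared change under each setting of the fit, with the libraries left out in turn and together to the right. White dots mark an adjusted p under 0.05 and grey cells genes not tested; Lrrc3b and Pla2r1 carry a dot in every column, and the 8 genes from Klhl6 down have none without LAP 2.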

How the data were processed

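RNA from stably transfected MEFs (9 libraries, 3 per group) was sequenced on a HiSeq2500 from TruSeq libraries. The deposited values were whole-number counts per gene, which the authors made by demultiplexing with bcl2fastq 1.8.3, aligning with TopHat 1.4.1 and counting with HTSeq 0.5.4. The strand setting of the counting and the treatment of reads with several matches are not given in the sources used here.

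Counts of 23337 genes were analysed with edgeR 4.0.16 in R 4.3.3. Genes with at least 1 count over all libraries were kept, libraries were scaled by TMM (factors 0.949 to 1.10), and 1 quasi-likelihood fit of the 3 groups gave 4 contrasts: the mean of LAP and LIP against EV, LIP against LAP, and each isoform against EV. P-values were adjusted by Benjamini-Hochberg over all genes, with 0.05 as the threshold. CPM values are scaled by TMM, standard errors were obtained from the fold change and its F statistic, and intervals are at 95%. A shared change was a call in the mean of both with the same sign for each isoform. An opposite change was a call in LIP against LAP with opposite signs against EV. Levels are not corrected for length and are not compared between genes.

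Named genes were those called in the mean of both, up to 6 per opposite pattern with a mean of at least 50 counts, EV between the isoforms in every library and the largest change, Cebpb and Lin28b, and up to 4 called members per list or otherwise the one of smallest p. Other genes named were chosen after their values were seen. Results of 2 genes that the rule names are not reported here, though they stay in all counts. The members and lists were chosen with earlier results of these data known. Lists were described by counts and medians.

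The replicate numbers in the labels pair LAP with LIP (r of deviations from the group means 0.558, 0.413 and 0.466 for numbers 1 to 3) and EV with LAP (0.524, 0.210 and 0.511), but not EV with LIP (0.290, -0.121 and 0.231). What a number stands for is not stated.

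Alternatives were DESeq2 1.42.0, its size factors, total counts, filterByExpr, robust estimation, LAP and LIP as 1 group, a replicate block, stricter thresholds and the omission of each library. The fit was tested on simulated counts, where the test without a filter on low counts made more false calls than its threshold allows when dispersions differed between genes, and filterByExpr did not. Gene positions and promoters were read from RefSeq on GRCm38.p6, in which 23086 symbols were found. Figures were drawn with matplotlib 3.10.9.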

Additional observations from a re-analysis of the deposited data

How the results depend on the processing

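In the mean of both isoforms, 17 genes were lower and 1 higher, all 18 with a shared direction, while 218 of the 263 genes that differed between LIP and LAP had opposite signs. With filterByExpr these 5 counts, in the same order, were 6, 0, 6, 20 and 21; at an unadjusted p under 0.05 in the fit of all genes 286 genes were higher. DESeq2's Wald test gave 31, 7, 35, 334 and 419. Robust estimation gave 10, 0, 10, 117 and 132. With LAP and LIP as 1 group of 6, 4 genes were lower and 0 higher. With the replicate block, the counts were 208, 18, 195, 675 and 963, and all 18 genes were among the 226 called in the mean of both. At an adjusted p under 0.01, 9 genes were lower, 10 had a shared direction, 44 had opposite signs and 51 differed between the isoforms. Without LAP 2, LIP 2 and LIP 3, chosen after seeing the data, the counts were 8, 2, 10, 3 and 5, with the 1 LIP library left assumed to vary like the other groups. With 1 library left out at a time, lower genes ran from 8 to 34, higher genes from 1 to 4, shared directions from 9 to 36, opposite signs from 32 to 390 and differences between LIP and LAP from 42 to 490. Lower genes were 11 without EV 1, 10 without EV 2 and 8 without LAP 2, but 31 without LAP 1 or LIP 1 and 34 without LIP 3. DESeq2's size factors, total counts and a 2-fold limit kept the 5 counts within 1.5 times. The cause of these shifts was not tested, beyond the fewer genes or libraries that an alternative holds. For single named genes, 517 comparisons with an alternative stayed on their side of the threshold, 169 fell short of it, 1 newly passed and 0 changed direction. Genes of few counts carry the widest intervals, and depth limits what can be said of LIP against LAP for Lrrc3b, Zic1 and Prg2.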
